A study of Mus musculus with 13 samples.

Results

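The transcripts of 10 nuclear receptor genes that govern hepatocyte metabolism were followed in the livers of 13 mice, with and without bile duct ligation (BDL), the surgical closure of the bile duct that models cholestasis. The genes were chosen by name (Nr1h4, Nr0b2, Nr1i2, Nr1i3, Ppara, Nr5a2, Hnf4a, Rxra, Nr1h3 and Esr1), and all 10 were found, by their Entrez gene numbers, among the 23019 genes present in each of the 3 deposited count tables. RNA was extracted from whole liver of C57 mice of 3 months of age and sequenced. In the no BDL group (n = 5) the livers came from non-treated mice. The miR-Ctrl BDL mice (n = 4) underwent BDL and received a control oligonucleotide, and the anti-miR-873-5p BDL mice (n = 4) underwent BDL and received a hairpin inhibitor of the microRNA miR-873-5p, in both cases 60 µg per mouse into the tail vein on days 3 and 5, with livers taken on day 7. No mouse had a sham operation or received an oligonucleotide without BDL, so surgery, injection with its carrier and cholestasis cannot be told apart in any comparison with no BDL, and every ligated mouse was injected.

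Nuclear receptors are transcription factors that bind small lipid-soluble ligands and recruit coactivators or corepressors to the promoters of their target genes. In hepatocytes, Nr1h4 (FXR) senses bile acids and induces Nr0b2 (SHP), which represses bile acid synthesis. Nr1i2 (PXR) and Nr1i3 (CAR) control detoxifying enzymes and transporters, Ppara controls fatty acid oxidation, Nr1h3 (LXR-alpha) controls cholesterol efflux and lipogenesis, and most of these receptors bind DNA as a dimer with Rxra. Nr5a2 (LRH-1) and Hnf4a maintain the hepatocyte programme, and Esr1 is the oestrogen receptor alpha.

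Counts per gene summed to between 12185333 and 19689037 per mouse. Levels below are CPM values scaled by the trimmed mean of M values (TMM) over the 13 mice together, and are called normalized counts. Differences were tested with the quasi-likelihood test of edgeR over all genes of a table, and those with a Benjamini-Hochberg adjusted p under 0.05 were called. The table of both BDL groups holds 3 mice per group, without miR-Ctrl BDL mouse 3 and anti-miR-873-5p BDL mouse 2. Both stood apart in the receptors as well: anti-miR-873-5p BDL mouse 2 had the highest Hnf4a (826), Nr1i3 (259), Nr1i2 (128) and Nr0b2 (54.0) normalized counts of its group, and miR-Ctrl BDL mouse 3 had the highest Hnf4a (664) and Nr1i2 (98.4) of its group. Within its group, no BDL mouse 5 had the lowest Ppara, Nr1i3, Nr1h4 and Nr1i2. Its Saa1, an acute-phase gene, stood at 6823 normalized counts against 47.7 to 98.3 in the other no BDL mice (Saa1 was named after its values were seen). That level was also above every ligated mouse, of which miR-Ctrl BDL mouse 3 was the highest at 5306. Calls of receptors that turned on 1 of these 3 mice are followed by the value without it. Counts in the other gene lists also moved without these mice, and not every such count is given.

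In non-treated liver the receptors spanned a wide range of abundance. Per kilobase of transcript, Hnf4a was the most abundant at 137 ± 20.5 normalized counts per kilobase (SD, n = 5), followed by Nr1i3 (102 ± 39.8) and Rxra (89.7 ± 6.73), and the ranges over mice of these neighbours overlapped. The level and place of Nr1i3 are uncertain in every group. Exons of another gene, Tomm40l, cover 66.1% of the Nr1i3 exons, and reads of both genes cannot be told apart there. Nr1h4 (59.8 ± 11.7), Nr1h3 (58.9 ± 5.90) and Ppara (58.6 ± 20.5) formed a middle level whose ranges also overlapped, followed by Nr0b2 (30.9 ± 14.9) and Nr1i2 (29.2 ± 3.72). Nr5a2 (6.29 ± 1.45) and Esr1 (0.53 ± 0.09) were the lowest and were separated from their neighbours in every mouse. Without no BDL mouse 5, Ppara stood at 66.5 ± 11.96 and came before Nr1h4 (63.9 ± 8.49) and Nr1h3 (57.5 ± 5.91) in this order. In miR-Ctrl BDL livers Hnf4a remained first (114 ± 25.5 per kilobase, n = 4) and Rxra stood next (58.7 ± 6.33), whereas Ppara had moved below Nr0b2 (15.9 ± 3.34 against 18.4 ± 1.59), with overlapping ranges. In anti-miR-873-5p BDL livers Hnf4a (124 ± 43.8) was followed by Nr1i3 (89.3 ± 63.5) and Rxra (74.2 ± 11.7), with overlapping ranges. The place of Nr1i3 rested on mouse 2 of that group: without it Rxra (68.6 ± 4.53, n = 3) stood above Nr1i3 (57.9 ± 11.6), as in miR-Ctrl BDL.

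**Figure D1:**
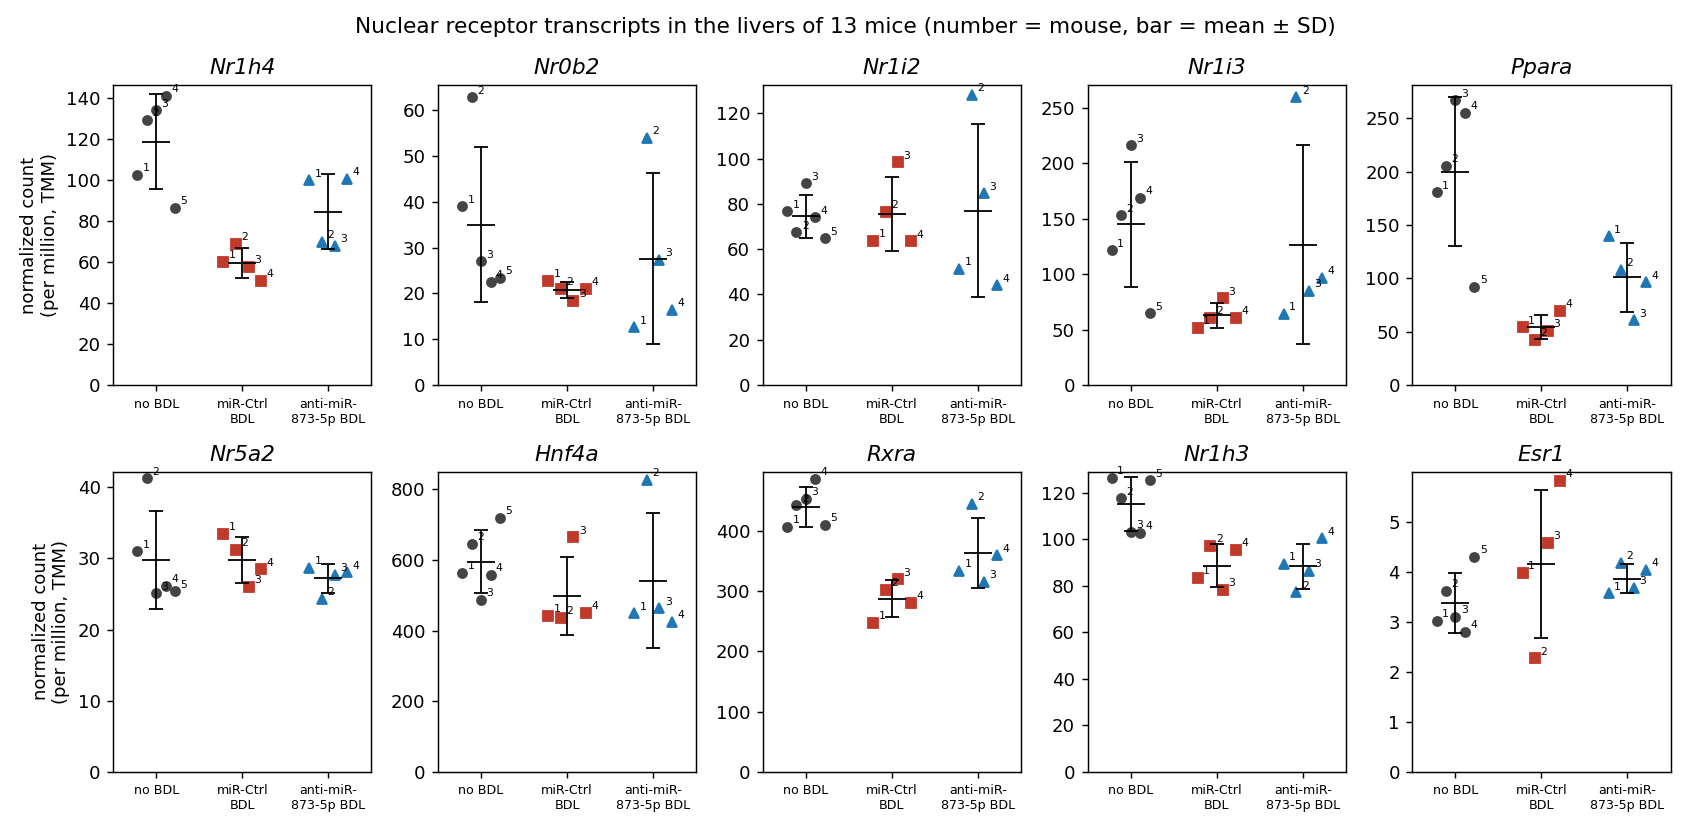
Normalized counts (CPM after TMM over 13 mice, linear axes from 0) of the 10 receptors in each mouse, by group; points are mice with their number, and bars are the mean ± SD (n = 5, 4 and 4). The 4 miR-Ctrl BDL mice lie below all 5 no BDL mice for Nr1h4, Ppara, Rxra and Nr1h3, as in 14.8% of all genes tested, while Nr1i2, Nr5a2 and Esr1 overlap.

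The comparison of miR-Ctrl BDL with no BDL gives the differences of the receptors between ligated, injected mice after a week and non-treated mice. Of the 10 receptors, 5 fell (Ppara, Nr1i3, Nr1h4, Rxra and Nr1h3), none rose, and 5 did not pass the test (Nr0b2, Hnf4a, Nr1i2, Nr5a2 and Esr1). Over all 13072 genes tested 35.7% passed, 16.6% lower and 19.1% higher. The 10 receptors had a median difference of -0.47 on the log2 scale, and all tested genes one of -0.01. All 10 had passed the filter on low counts. For 4 of the 10 (Nr1h4, Ppara, Rxra and Nr1h3) all ligated mice lay below all non-treated mice, and for none did they lie above; of all genes tested, 29.6% separated in either direction and 14.8% in the lower one.

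Among the bile acid sensors, Nr1h4 fell to about the same extent in each ligated mouse. This gene lies at chr10:89454234-89533645 (GRCm38, minus strand). Its normalized counts were 103, 129, 134, 141 and 86.6 in no BDL mice 1 to 5, and 60.2, 68.8, 57.8 and 50.9 in miR-Ctrl BDL mice 1 to 4, so every control-injected ligated mouse stood below every non-treated mouse. The difference was -0.97 on the log2 scale (SE 0.17, edgeR adjusted p = 0.00196), a 1.96-fold decrease, and it passed the test without any single mouse (adjusted p 0.000708 to 0.00750). Nr0b2, the corepressor that FXR induces (chr4:133553376-133556686, plus strand), was at 39.05, 62.8, 27.0, 22.5 and 23.5 in no BDL and at 22.8, 21.0, 18.4 and 21.0 in miR-Ctrl BDL. The groups overlapped through miR-Ctrl BDL mouse 1 and no BDL mouse 4, the level in no BDL varied with an SD of 16.9 around a mean of 34.96, and the difference of -0.72 (SE 0.29, edgeR adjusted p = 0.0819) did not pass. It passed without no BDL mouse 5 (-0.83, adjusted p = 0.0499) and shrank to -0.40 (adjusted p = 0.123) without no BDL mouse 2, the highest of its group.

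The xenobiotic receptors differed in their values. Nr1i2 (chr16:38248349-38294849, minus strand) was at 64.9 to 89.1 with a median of 74.1 in no BDL and at 63.7, 76.6, 98.4 and 63.4 in miR-Ctrl BDL, a difference of 0.04 with a 95% confidence interval of -0.29 to 0.37. Nr1i3 (chr1:171213934-171218845, plus strand) was at 121, 153, 216, 169 and 64.6 in no BDL and at 51.6, 60.4, 78.2 and 60.7 in miR-Ctrl BDL. It fell by 1.18 on the log2 scale (SE 0.30, edgeR adjusted p = 0.0119), and the groups overlapped only in no BDL mouse 5 and miR-Ctrl BDL mouse 3; without no BDL mouse 5 the difference was -1.37 (adjusted p = 0.000870). Exons of the oppositely oriented gene Tomm40l, which encodes a mitochondrial import protein, cover 66.1% of the Nr1i3 exons, and the library kit does not mark strand, so reads of the 2 genes cannot be told apart there. Tomm40l gave nearly the same difference (-1.21, SE 0.27, adjusted p = 0.00764), and the Nr1i3 values are therefore uncertain.

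Of the receptors for lipids, Ppara changed the most of the 10. It lies at chr15:85734910-85806851 (plus strand). Its normalized counts were 181, 205, 267, 255 and 92.2 in no BDL against 54.1, 42.3, 50.7 and 69.5 in miR-Ctrl BDL, and even no BDL mouse 5, which had the lowest level of its group, stood above all 4 ligated mice. Ppara fell by 1.86 on the log2 scale (SE 0.29, edgeR adjusted p = 0.00133), a 3.63-fold decrease, and the difference was -2.04 without no BDL mouse 5. Nr1h3 (chr2:91184061-91202829, minus strand) was at 126, 118, 103, 103 and 125 in no BDL and at 83.6, 97.2, 78.3 and 95.6 in miR-Ctrl BDL. The groups did not overlap, but the decrease was small (-0.35, SE 0.12, edgeR adjusted p = 0.0385), and it no longer passed without any of no BDL mice 1, 2 and 5 or miR-Ctrl BDL mice 1, 3 and 4 (adjusted p up to 0.0951).

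The common dimer partner Rxra (chr2:27676445-27763319, plus strand) was among the steadiest receptors within groups. It stood at 407, 443, 453, 487 and 410 in no BDL and at 248, 302, 320 and 281 in miR-Ctrl BDL, without overlap. It fell by 0.59 on the log2 scale (SE 0.12, edgeR adjusted p = 0.00433), a 1.51-fold decrease that passed without any single mouse.

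The receptors of the hepatocyte programme and Esr1 did not pass. Hnf4a (chr2:163506811-163572907, plus strand) was at 563, 646, 488, 558 and 719 in no BDL and at 442, 435, 664 and 449 in miR-Ctrl BDL, so that 3 of the 4 ligated mice lay below all non-treated mice and mouse 3 lay above 4 of them. The difference was -0.24 (SE 0.17, edgeR adjusted p = 0.318), and without miR-Ctrl BDL mouse 3 it passed (-0.41, adjusted p = 0.0435). Nr5a2 (chr1:136842562-136960448, minus strand) was at 25.1 to 41.3 with a median of 26.1 in no BDL and at 33.4, 31.2, 26.0 and 28.4 in miR-Ctrl BDL, a difference of 0.03 (95% confidence interval -0.34 to 0.39). Esr1 (chr10:4611989-5005633, plus strand) was counted only 34 to 97 times per mouse in that table; its difference of 0.32 (SE 0.26, edgeR adjusted p = 0.366) had a 95% confidence interval from -0.26 to 0.91.

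**Figure D2:**
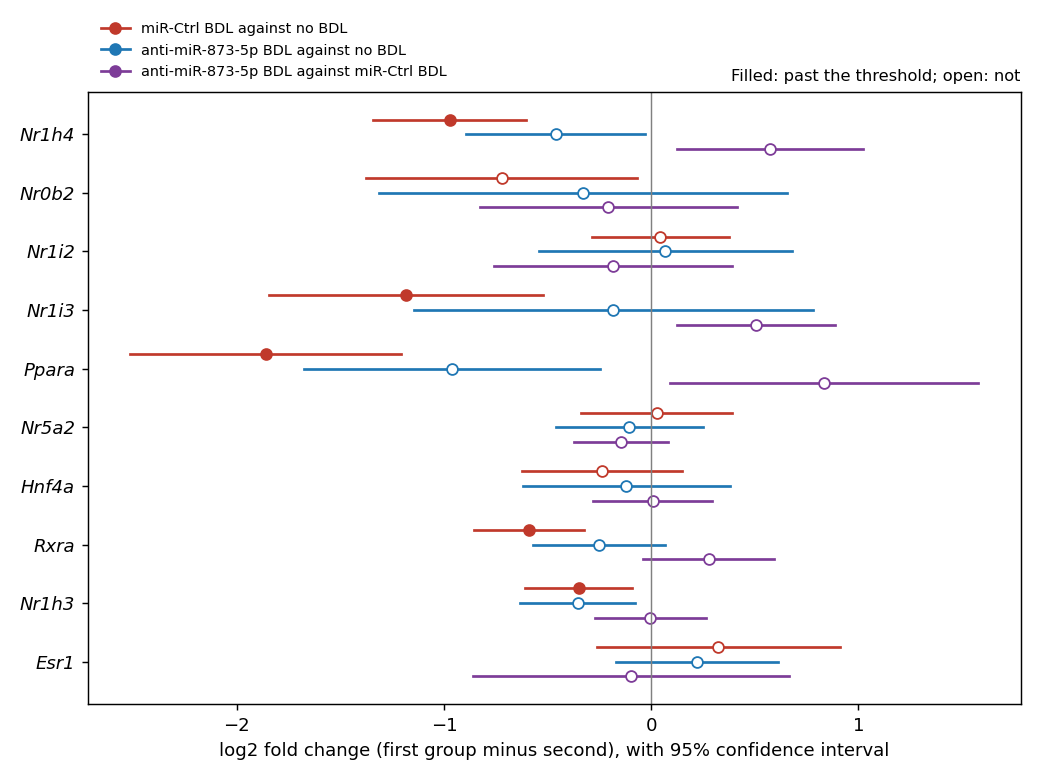
Log2 fold change of each receptor in the 3 comparisons (horizontal axis, first group minus second) with its 95% confidence interval from the edgeR fit; filled points passed an adjusted p of 0.05. The filled points are the 5 receptors lower in miR-Ctrl BDL than in no BDL, led by Ppara at -1.86, and every point of the other 2 comparisons is open.

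The anti-miR-873-5p BDL mice were compared with the same 5 no BDL mice. Here none of the 10 receptors passed the edgeR test, beside 21.5% of the 13130 genes tested (8.44% lower and 13.1% higher), while 3 receptors (Ppara, Nr1h3 and Nr1h4) had an unadjusted p under 0.05, each of them lower, beside 36.2% of all genes tested (16.1% lower). DESeq2 called Ppara and Nr1h3 lower, 2 of 10, beside 21.4% of all genes (8.31% lower). Both comparisons share the no BDL mice, and whether a receptor differs between the BDL groups rests on the direct comparison that follows. The receptors had a median difference of -0.22 on the log2 scale.

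In mice 1 to 4 of the inhibitor group Ppara was at 139, 108, 60.6 and 96.1, above all 4 miR-Ctrl BDL mice except in mouse 3, and it overlapped no BDL only through no BDL mouse 5. Its difference from no BDL was -0.96 (SE 0.32, edgeR adjusted p = 0.0576). It passed without no BDL mouse 5 (-1.14, adjusted p = 0.0127), without anti-miR-873-5p BDL mouse 1 (-1.17, adjusted p = 0.0369) and by DESeq2 (adjusted p = 0.0195).

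Nr1h4 was at 99.9, 70.0, 68.0 and 101 in the inhibitor group, with mice 1 and 4 within the no BDL range and mice 2 and 3 below it, and its difference from no BDL was -0.46 (SE 0.19, edgeR adjusted p = 0.115). Nr1h3 was at 89.3, 77.2, 86.5 and 100.3, each below the lowest no BDL mouse on this scale though not on the scale of the table of these 2 groups, and had the same size of difference as in the control-injected mice (-0.35, SE 0.12), which did not pass in edgeR (adjusted p = 0.0677) and passed in DESeq2 (adjusted p = 0.0207). Rxra was at 334, 445, 316 and 360, with mouse 2 alone within the no BDL range (-0.25, SE 0.14, edgeR adjusted p = 0.235; without mouse 2 -0.37, adjusted p = 0.0503).

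The receptors that depended on anti-miR-873-5p BDL mouse 2 were Nr1i3, Nr0b2, Hnf4a and Nr1i2. Nr1i3 was at 64.3, 259, 84.7 and 96.7, and its difference from no BDL was -0.18 (SE 0.43) with mouse 2 and -0.80 (SE 0.34, edgeR adjusted p = 0.0982) without it. Nr0b2 was at 12.6, 54.0, 27.3 and 16.5, and its difference moved from -0.33 to -0.87 (adjusted p = 0.115) without mouse 2, and to -0.0055 without no BDL mouse 2. Hnf4a, at 449, 826, 463 and 424, moved from -0.12 to -0.40 (adjusted p = 0.0846). Nr1i2, at 51.4, 128, 84.7 and 44.0, was 0.07 higher with mouse 2 and 0.29 lower without it (log2 fold change -0.29, adjusted p = 0.319). Nr5a2 was at 24.3 to 28.7 and Esr1 at 3.56 to 4.17 in the 4 mice, each within the no BDL range of 25.1 to 41.3 and 2.79 to 4.29 but for the Nr5a2 value of mouse 2.

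The direct comparison of both BDL groups, with 3 mice in each, asks whether the inhibitor changed the receptors in ligated liver. No receptor passed, and none of the 13746 genes tested did (0%); 863 genes (6.28%, and 3.71% on the higher side) and 3 receptors, all higher, had an unadjusted p under 0.05, and DESeq2 called 31 genes (0.17%), no receptor among them. These unadjusted counts changed with single mice. They were 529 genes and 0 receptors without miR-Ctrl BDL mouse 1, 500 and 2 without miR-Ctrl BDL mouse 4, and 1185 and 2 without miR-Ctrl BDL mouse 2. They were 1380 and 1 without anti-miR-873-5p BDL mouse 1, 809 and 5 without its mouse 3, and 649 and 0 without its mouse 4. The receptors with an unadjusted p under 0.05 were Ppara (0.83 higher with the inhibitor, SE 0.32), Nr1h4 (0.57, SE 0.19) and Nr1i3 (0.51, SE 0.16), at edgeR adjusted p values of 0.763, 0.757 and 0.757. Leaving out 1 mouse, the log2 difference of Ppara ran from 0.49 (without anti-miR-873-5p BDL mouse 1) to 1.09 (without its mouse 3), that of Nr1h4 from 0.46 to 0.74 and that of Nr1i3 from 0.37 to 0.65. In the 3 mice per group of that table, 2 of 10 receptors, Nr1i3 and Rxra, were higher without overlap and none lower, beside 11.4% of all genes that did not overlap (6.59% higher). Nr1i3 was at 64.3, 84.7 and 96.7 with the inhibitor against 51.6, 60.4 and 60.7, and Rxra at 334, 316 and 360 against 248, 302 and 281 (0.28, SE 0.13, edgeR adjusted p = 0.781). Both overlapped once miR-Ctrl BDL mouse 3 was counted (78.2 for Nr1i3 and 320 for Rxra). With all 4 mice of each group the log2 differences were 0.90 for Ppara (SE 0.26), 0.51 for Nr1h4 (SE 0.18) and 1.02 for Nr1i3 (SE 0.42), each at an adjusted p of 0.980.

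For the other receptors the 95% confidence intervals show which differences between the BDL groups remain possible. They ran from -0.28 to 0.30 for Hnf4a, from -0.27 to 0.26 for Nr1h3 and from -0.37 to 0.08 for Nr5a2. They were wider for Nr1i2 (-0.76 to 0.39), Nr0b2 (-0.83 to 0.41) and Esr1 (-0.86 to 0.67).

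The inhibited microRNA is shown with its seed (bases 2 to 8 from the 5′ end) in capitals, from RefSeq on GRCm38.p6, where it lies at chr4:36668556-36668576 on the minus strand, and beside it the windows of the 2 receptor transcripts whose 3′ ends hold a match to that seed, because they are the members in which a site for the inhibited microRNA can be written down.
mmu-miR-873a-5p: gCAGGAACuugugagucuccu
Ppara, around base 1442 after the stop codon: tggaggggcttgGTTCCTGgtgccgat
Esr1, around base 1199 after the stop codon: tcagatacctgtGTTCCTGtagatgct
The capitals in the transcript windows mark GTTCCTG, the complement of the seed. It was found after the stop codon in 2 of the 10 receptors and in 12.8% of the 20758 genes with an annotated 3′ end (GENCODE M21, longest coding transcript). Ppara with its match was 0.83 higher and Esr1 with its match 0.10 lower on the log2 scale with the inhibitor (log2 fold changes 0.83 and -0.10), neither of which passed. A match of letters is a description only, and the level of the microRNA was not measured here.

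Promoters were searched for the nuclear receptor hexamer AGGTCA and for GTTAAT, part of the element bound by HNF1 factors, on both strands of the 250 bases before each start in RefSeq. AGGTCA was found in 14.0% of 32851 mouse promoter windows and in 3 of the 15 windows of the receptors (genes Nr1h4, Nr5a2 and Rxra), and GTTAAT in 6.43% and in 3 of 15 (Hnf4a, Nr1h4 and Nr5a2). Nr1h4 and Nr5a2 are shown because they are the receptors with a window that holds both. Another window of Nr5a2 (chr1:136953631-136953880) held neither motif, and which start the livers used was not tested. The transcripts of Nr1h4 and Nr5a2 differed in response: from no BDL to miR-Ctrl BDL Nr1h4 changed by -0.97 and Nr5a2 by 0.03 (log2). Capitals mark either motif, read on the gene's strand or its complement.
Nr1h4, chr10:89506659-89506908, minus strand: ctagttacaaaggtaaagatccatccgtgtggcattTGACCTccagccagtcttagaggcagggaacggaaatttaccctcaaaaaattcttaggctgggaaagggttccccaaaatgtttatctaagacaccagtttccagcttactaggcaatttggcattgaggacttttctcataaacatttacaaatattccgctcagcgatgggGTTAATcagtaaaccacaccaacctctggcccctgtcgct
Nr5a2, chr1:136960449-136960698, minus strand: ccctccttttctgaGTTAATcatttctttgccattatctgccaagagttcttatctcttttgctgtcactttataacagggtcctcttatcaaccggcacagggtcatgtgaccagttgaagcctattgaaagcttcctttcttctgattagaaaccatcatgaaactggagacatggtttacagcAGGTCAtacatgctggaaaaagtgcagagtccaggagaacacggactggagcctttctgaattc
The Nr1h4 window lies within the span given for the gene (chr10:89454234-89533645), before a start inside it and not at its outer 5′ end. In the Nr1h4 window AGGTCA lies on the complementary strand 214 bases before that start and GTTAAT 40 bases before it. In the Nr5a2 window shown AGGTCA lies 64 and GTTAAT 236 bases before the start. No window of a receptor held TGTTTAC, the FOXA core, which 3.17% of all windows held.

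The receptor differences depend on the scale against which liver RNA is read. The 20 genes with the most counts took 33.0% to 44.4% of the counts in no BDL and 19.8% to 24.8% in both BDL groups. TMM scaling set the median gene near 0 (-0.01), whereas scaling by library size alone put the median gene at a log2 difference of 0.79 in miR-Ctrl BDL and 0.82 in anti-miR-873-5p BDL, and turned the split of the called genes from 2491 higher and 2175 lower to 9360 higher and 275 lower in the first, and from 1715 higher and 1108 lower to 10063 higher and 131 lower in the second. On that scale only Ppara was lower in miR-Ctrl BDL among the receptors called (-1.09, edgeR adjusted p = 0.0101), Nr1h4 and Nr1i3 were not called (-0.17 and -0.43), Rxra had the opposite sign (0.20, adjusted p = 0.287) and Nr1h3 was called higher (0.47, adjusted p = 0.0175). In all, 5 receptors were then called higher in miR-Ctrl BDL (Nr1h3, Nr1i2, Nr5a2, Hnf4a and Esr1) and 1 lower. With the inhibitor 6 were called higher (the same 5 and Rxra) and 0 lower. Relative to the median gene the 5 differences kept their values: -1.88 for Ppara, -1.22 for Nr1i3, -0.96 for Nr1h4, -0.59 for Rxra and -0.32 for Nr1h3. The decreases stated here are therefore decreases relative to the typical transcript of the same liver.

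Since whole liver was sequenced, a lower level can be fewer hepatocytes or less of the transcript per hepatocyte, which cannot be told apart. Of the 12 hepatocyte marker genes, 7 fell and 1 rose (Trf, transferrin) in miR-Ctrl BDL (median -0.69 on the log2 scale), and Hpd, an enzyme of tyrosine breakdown, fell by 1.76. Of all genes tested 16.6% were called lower there and 8.44% in anti-miR-873-5p BDL. In anti-miR-873-5p BDL 2 of 12 fell (Hpd -1.10 and Apoh -0.78), with a median of -0.49, and without anti-miR-873-5p BDL mouse 2 it was 6 of 12 (median -0.68). The summed normalized count of the markers, on the scale of each table, was 72931 to 100967 in miR-Ctrl BDL against 98017 to 105198 in no BDL, and 68194 to 108492 in anti-miR-873-5p BDL against 100542 to 107772. Each receptor was therefore also set against the mean log2 level of the 12 markers in the same mouse, which was 10.53 ± 0.18 in miR-Ctrl BDL (n = 4) and 11.01 ± 0.07 in no BDL (n = 5).

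Against the hepatocyte markers, Ppara was still lower in all 4 miR-Ctrl BDL mice than in all 5 no BDL mice, by 1.31 on the log2 scale (difference -1.31), Nr1i3 by 0.61 (-0.61) and Nr1h4 by 0.47 (-0.47), while Rxra (-0.11) and Nr1h3 (0.13) lay near 0. Nr1i2 set against the markers was above every no BDL mouse in all 4 ligated mice (0.51), and the differences of Nr5a2 (0.53), Hnf4a (0.24) and Esr1 (0.74) were also positive. The marker mean itself was lower in miR-Ctrl BDL (10.53 against 11.01). A gene that is steady against all genes, such as Nr1i2 (0.04), therefore moves up on this scale. How many of all genes separate on this scale was not counted. None of the 30 such comparisons passed after adjustment (two-sided exact permutation tests). The unadjusted p was 0.0159 for Ppara and for Nr1i2, the smallest that 4 against 5 mice can give, and the adjusted p was 0.238 for both; 3 against 3 mice cannot go below 0.1. With the inhibitor, the difference from no BDL set against the markers was -0.54 for Ppara and -0.08 for Nr1h4 (exact permutation p 0.159 and 0.778).

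**Figure D3:**
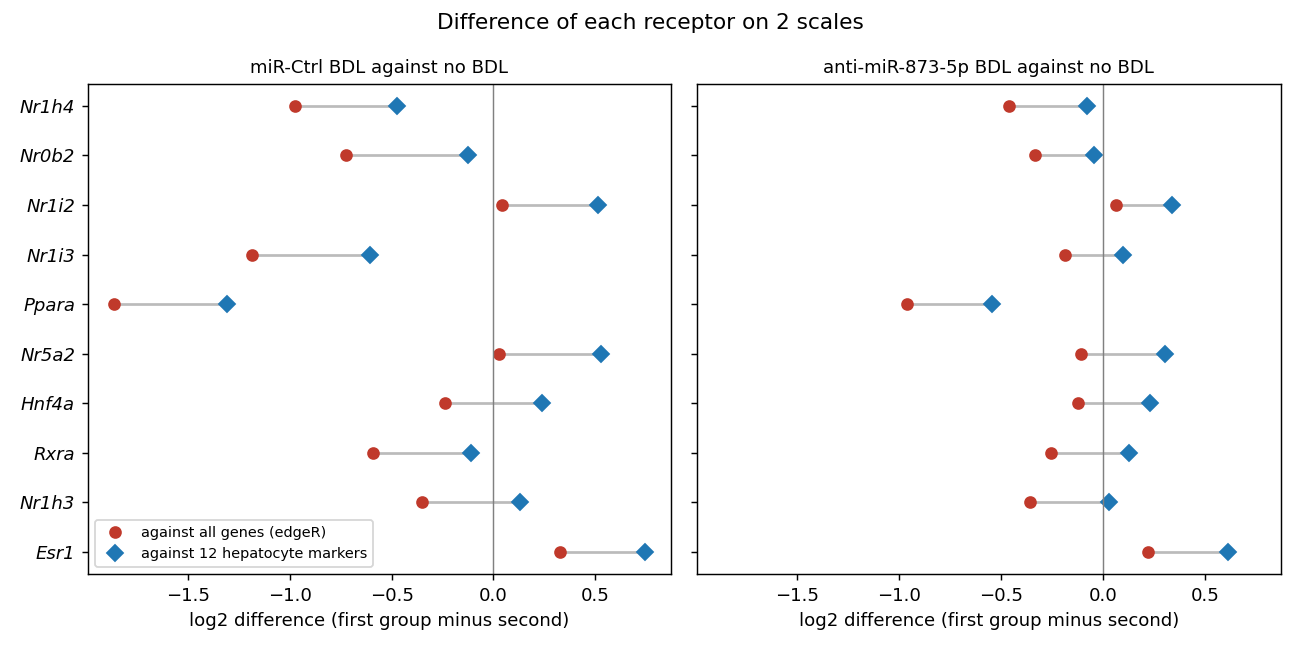
Log2 difference of each receptor from no BDL (horizontal axis) on 2 scales: circles are the edgeR fold change against all genes, diamonds the difference after subtracting the mean of 12 hepatocyte markers in each mouse. The diamonds lie to the right of the circles in both panels; in miR-Ctrl BDL Ppara stays the lowest at -1.31 and Rxra and Nr1h3 come to lie near 0.

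Markers of other liver cells moved with the same groups, and their part in the receptor differences was not tested beyond the comparison with the hepatocyte markers. Of all genes tested 19.1% were called higher in miR-Ctrl BDL and 13.1% in anti-miR-873-5p BDL. In miR-Ctrl BDL 6 of the 7 cholangiocyte markers tested rose (median 3.19, summed normalized count 420 to 1489 against 58.4 to 129), led by Cldn4 (4.62), Spp1 (3.77) and Krt7 (3.24), as did 6 of 8 macrophage markers (1.91; 549 to 1334 against 78.9 to 426; Cd14, Marco and Lyz2 the furthest), 5 of 8 stellate cell and myofibroblast markers (1.13; 168 to 567 against 74.4 to 118; Col1a1, Col1a2 and Col3a1) and 3 of 3 neutrophil markers tested (5.01; 15.4 to 166 against 2.77 to 11.9; S100a8, S100a9 and Csf3r). None of 7 endothelial markers passed (median -0.13), and 1 of 6 T and NK cell markers could be tested (Cd8a, 1.25, adjusted p = 0.284). With the inhibitor, 6 of 7 cholangiocyte (median 3.48), 3 of 8 macrophage (1.52), 4 of 8 stellate cell and myofibroblast (1.42) and 3 of 3 neutrophil markers (3.19) rose and 1 of 7 endothelial markers fell (Kdr, -1.27), with summed counts of 213 to 1465, 342 to 995, 110 to 717 and 10.4 to 58.6 for the first 4 lists. Without no BDL mouse 5, 8 of 8 macrophage markers rose in miR-Ctrl BDL and 6 of 8 in anti-miR-873-5p BDL; without miR-Ctrl BDL mouse 3, Kdr fell by 0.98 (adjusted p = 0.00165). No marker of any list passed between the BDL groups. No marker in the tables was at 0 in every mouse.

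The target genes of the receptors were described by lists of textbook targets. Beside them, 16.6% of all genes tested were called lower in miR-Ctrl BDL and 8.44% in anti-miR-873-5p BDL. Genes of bile acid synthesis and uptake, which FXR and SHP restrain, showed the largest decreases: 6 of 7 fell in miR-Ctrl BDL (median log2 fold change -2.56) and 5 of 7 in anti-miR-873-5p BDL (-1.84). In miR-Ctrl BDL Cyp8b1, the sterol 12-hydroxylase, had a log2 fold change of -7.26 (SE 0.46), the uptake transporter Slco1a1 of -6.57 (SE 0.59) and Cyp7b1, an oxysterol hydroxylase, of -2.92 (SE 0.41). In anti-miR-873-5p BDL the genes past the threshold with the largest changes were others in part. They were Slco1a1 (-4.74, SE 0.55), Cyp7b1 (-2.65, SE 0.53) and the bile salt importer Slc10a1 (-1.84, SE 0.34). Between the BDL groups Cyp8b1 was 4.91 higher with the inhibitor (SE 1.08) and Slco1a1 1.85 higher (SE 0.58), which did not pass (edgeR adjusted p = 0.757 for both). In miR-Ctrl BDL Cyp8b1 was near the floor, at 52 counts or fewer per mouse, so its differences from that group rest on few counts. Cyp7a1, the rate-limiting enzyme of the classical pathway, named here after its values were seen, did not pass in any comparison (-0.86, 0.86 and 1.73 in the order given, adjusted p 0.389, 0.529 and 0.757).

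Of the 8 FXR targets tested, 3 rose and 2 fell in miR-Ctrl BDL (median -0.18). Slc51b, a subunit of the basolateral bile acid exporter, rose by 4.37 (SE 0.56) and Apoc2 by 1.32, and Slc27a5, which activates bile acids for conjugation, fell by 1.44. In no BDL Slc51b was near the floor, at 13 counts or fewer per mouse. Slc51a, the remaining gene of the 9 listed, had no counts in any mouse of this comparison or of that between the BDL groups. The values of Slc51b therefore cover that subunit alone. In anti-miR-873-5p BDL 2 rose (Slc51b by 3.50 and the phospholipid exporter Abcb4 by 0.72) and Slc27a5 fell by 1.26. Apoc2 was 0.81 higher without miR-Ctrl BDL mouse 3, and Abcb4 no longer passed without anti-miR-873-5p BDL mouse 2 (0.49, adjusted p = 0.0762) or no BDL mouse 5 (0.65, adjusted p = 0.0770). Of the 11 PXR and CAR targets tested, 3 fell and 1 rose in each BDL group (median -0.32 and -0.63). Over all genes tested 35.7% passed in miR-Ctrl BDL and 21.5% in anti-miR-873-5p BDL. The cytochromes P450 Cyp2c29 and Cyp2c37 and the carboxylesterase Ces2a fell in both groups, with log2 fold changes of -3.80, -3.04 and -1.76 in miR-Ctrl BDL and of -3.98, -2.61 and -2.45 in anti-miR-873-5p BDL.

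Of 21 PPAR-alpha targets, 6 fell and 1 rose in miR-Ctrl BDL (median -0.38), against 1 that fell in anti-miR-873-5p BDL (median -0.16). The shares of all genes called lower there were 16.6% and 8.44%. The fatty acid binding protein Fabp1 fell in both (-3.23, SE 0.37, and -2.61, SE 0.55). In miR-Ctrl BDL the peroxisomal thiolase Acaa1b fell by 1.78, and Pdk4, a kinase that restrains glucose oxidation and is induced by Ppara, had a log2 fold change of 2.95 (adjusted p = 0.0262) that rested on miR-Ctrl BDL mouse 3. Pdk4 was at 25.5, 11.9, 196 and 14.2 normalized counts in miR-Ctrl BDL mice 1 to 4 against 2.88 to 14.8 in no BDL, and without mouse 3 it did not pass (1.12, SE 0.50, adjusted p = 0.0982). The list as a whole also turned on the 2 ligated mice that stood apart. Without miR-Ctrl BDL mouse 3, 15 of 21 targets fell and none rose (median -1.04), among them the omega-hydroxylase Cyp4a10 (-3.96, against -0.33 with all mice) and Cpt1a, the gate of mitochondrial fatty acid import (-1.14 against -0.53). Of all 13509 genes tested without that mouse, 2711 were called lower and 2999 higher. Without anti-miR-873-5p BDL mouse 2, 8 of 21 fell (median -0.58), beside 1817 of all 13597 genes called lower. Without no BDL mouse 5, 3 fell in that comparison, beside 1188 of all 13031 genes called lower. Cyp4a10 and Cpt1a were named after their values without a mouse were seen, as was Ncor1 below. Between the BDL groups the 21 targets had a median of 0.57, with Cyp4a14, another omega-hydroxylase (3.85, SE 1.19), and Cyp4a10 (2.71, SE 0.69) the furthest, and none passed (edgeR adjusted p = 0.757 for both genes). The median over all genes there was 0.01.

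Of 9 LXR targets, 3 fell and 1 rose in miR-Ctrl BDL (median -0.90): Abcg8, which exports sterols into bile, and Srebf1, the lipogenic transcription factor, fell (-1.59 and -1.27), and the exporter Abcg1, which macrophages also express, rose by 1.67. In anti-miR-873-5p BDL Abcg1 rose by 1.57 and no other LXR target passed (median -0.91). Of 9 HNF4-alpha targets, 6 fell in miR-Ctrl BDL (median -0.77) and 3 in anti-miR-873-5p BDL (-0.60), or 6 without its mouse 2 (-0.90). Transthyretin (Ttr), Apoa2 and the urea cycle enzyme Otc fell in both groups (-2.14, -1.93 and -1.52 in the first, -1.67, -1.51 and -1.41 in the second).

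**Figure D4:**
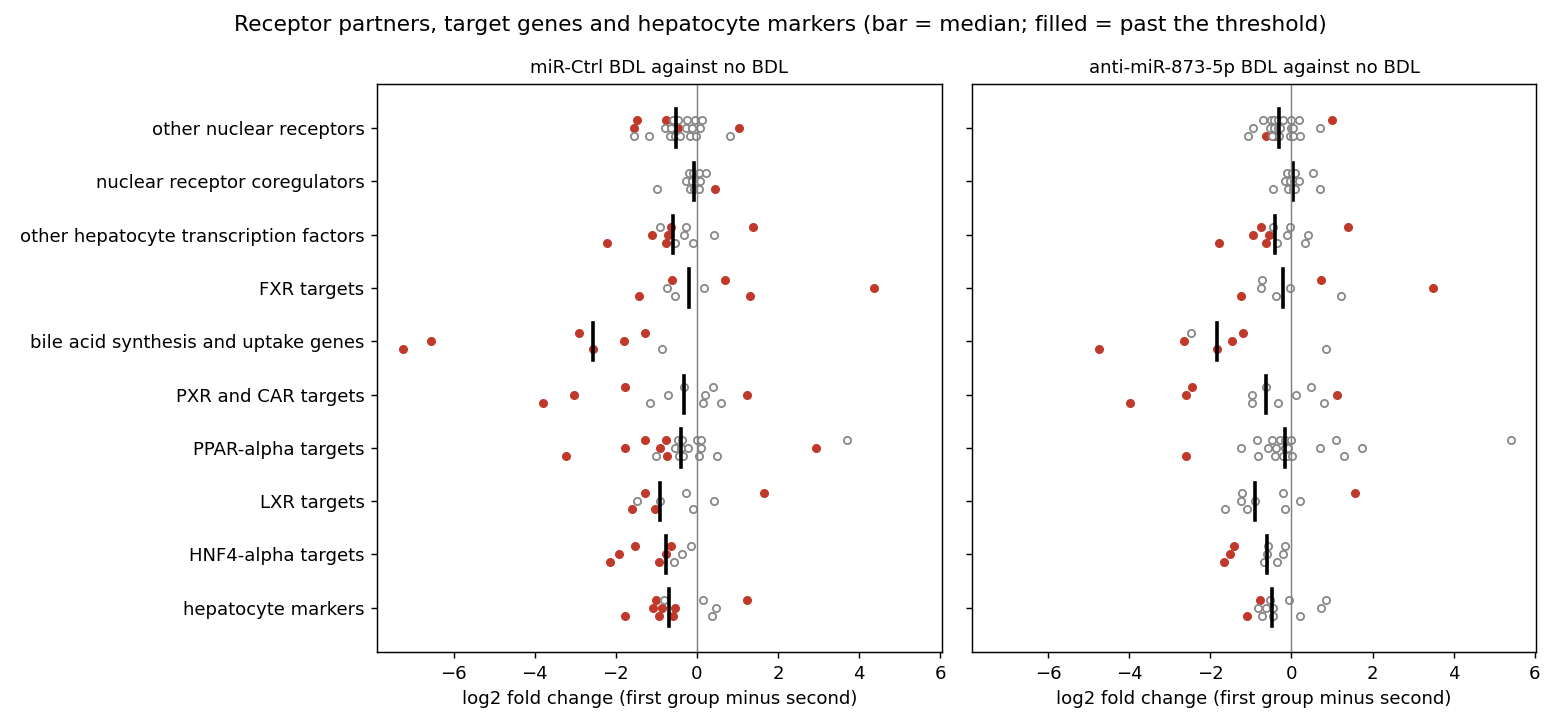
Log2 fold change from no BDL (horizontal axis, first group minus second) of each tested gene of 10 lists; filled points passed the edgeR test, open points did not, and black bars are list medians. The bile acid synthesis and uptake genes lie furthest to the left in both panels, with medians of -2.56 and -1.84, and the coregulators stay near 0.

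The remaining nuclear receptors and the partners of the 10 genes were measured in the same fits. With all mice, 35.7% of all genes tested passed in miR-Ctrl BDL (16.6% lower and 19.1% higher). In anti-miR-873-5p BDL 21.5% passed (8.44% lower and 13.1% higher). Of 39 other nuclear receptors 26 could be tested in miR-Ctrl BDL against no BDL, where 7 fell and 1 rose (median -0.51); the largest were Nr4a2 (-1.56, at 22 counts or fewer per mouse), the clock repressor Nr1d1 (-1.47, SE 0.38) and the retinoic acid receptor Rarg (1.04, SE 0.21), beside Thra, Thrb, Nr2c1, Nr6a1 and the glucocorticoid receptor Nr3c1. In anti-miR-873-5p BDL 24 could be tested, Thrb (-0.63) and Nr3c1 (-0.41) fell, and Rarg rose (1.01); without mouse 2 of that group 4 of 27 fell and 2 rose. Of 13 coregulators tested, 1 passed in miR-Ctrl BDL (Prmt1, an arginine methyltransferase, 0.44, SE 0.13) and none in anti-miR-873-5p BDL. Without miR-Ctrl BDL mouse 3 neither Prmt1 (0.34, adjusted p = 0.0518) nor Nr4a2 (-1.45, adjusted p = 0.0633) passed, and Ncor1, a corepressor, fell by 0.35. Without no BDL mouse 5, 2 coregulators fell and Prmt1 rose. Of the other nuclear receptors 10 fell and 2 rose in miR-Ctrl BDL without no BDL mouse 5, and 9 fell and 2 rose without miR-Ctrl BDL mouse 3. Of 12 other hepatocyte transcription factors 5 fell and 1 rose in each: in miR-Ctrl BDL Onecut1 (-2.21) and Cebpa (-1.11) fell and Gata6 (1.37) rose, and in anti-miR-873-5p BDL Onecut1 (-1.78) and Gata4 (-0.95) fell and Gata6 (1.40) rose. In the latter 3 fell without no BDL mouse 5. In miR-Ctrl BDL 7 of these factors fell without miR-Ctrl BDL mouse 3. Between the BDL groups no gene of these lists passed.

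No receptor passed in both comparisons with no BDL, so the rule set for naming genes of like pattern named none. Applied instead, after the values were seen, to the 5 receptors that passed in miR-Ctrl BDL, it measured the root mean square difference, over 13 mice, between the log2 level of a gene and that of the receptor, each relative to its no BDL mean, among 12211 genes. The closest gene to Ppara was Hlf, a circadian transcription factor of the PAR family (0.30, against a median of 1.23 over all genes), that to Nr1h4 was Fitm2, which acts in lipid droplet formation (0.20, median 0.71), and that to Rxra was Zfp963 (0.099, median 0.52). Orc4 was closest to Nr1h3 (0.092, median 0.48). The closest to Nr1i3 was Tomm40l (0.17, median 0.90), the gene whose exons overlap it.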

How the data were processed

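Liver RNA of 13 mice (no BDL n = 5, miR-Ctrl BDL n = 4, anti-miR-873-5p BDL n = 4) was sequenced by the authors in single reads of 50 nt from unstranded libraries. Per the labels, CASAVA 1.8.2, FastQC, Trim Galore and TopHat with mm10 were used; the counting program and annotation are not given in the sources used here. The authors deposited 3 tables of raw counts per gene, 1 for each pair of groups, that of both BDL groups holding 3 mice each, after outliers had been filtered. Counts cover 12185333 to 19689037 per mouse.

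Each table was tested with edgeR 4.0.16 in R 4.3.3 (filterByExpr, TMM, quasi-likelihood test, Benjamini-Hochberg adjusted p under 0.05), and DESeq2 1.42.0 was an alternative. The procedure was tested on simulated data. Levels per mouse used the 22246 genes with the same counts in the tables, out of 23019. Log2 values for the comparison with hepatocyte markers had a prior count of 2. Alternatives were other scalings, no filter, all groups in 1 fit, a replicate block and leaving out each mouse. The lists and the order per kilobase without the 3 mice that stood apart were added after the data were seen. The labels call the mice separate samples.

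The receptors and lists were chosen with earlier results of these data known. Named genes were the 10 receptors and, from each other list and comparison, the 3 genes past the threshold with the largest change or, where none passed, the 2 with the largest change; exceptions are stated, and 1 gene that the rule names is not reported here. Transcript lengths come from GENCODE M21, positions and promoters from RefSeq.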

Additional observations from a re-analysis of the deposited data

Results flagged for a closer look

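Of 30 groups of mice (10 receptors in 3 groups), 3 held a mouse far from the others by Dixon's test at the 95% level, where chance gives about 1 in 20 (1.5 of 30). Anti-miR-873-5p BDL mouse 2 was flagged for Nr1i3 (259 normalized counts, against 64.3 to 96.7 in the other 3 mice) and for Hnf4a (826, against 424 to 463). MiR-Ctrl BDL mouse 3 was flagged for Hnf4a (664, against 435 to 449). Both are the mice that the deposited table of the BDL groups does not hold. Groups had 4 or 5 mice.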

How the results depend on the processing

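The calls in miR-Ctrl BDL against no BDL came from 4 against 5 mice and those between the BDL groups from 3 against 3, and Esr1 was counted 34 to 97 times per mouse. Of 825 values recomputed under an alternative, 720 counted as unchanged. A tested difference had to keep its direction and its side of the threshold, and one without a test to move by less than 1 SD. A count of genes or receptors called had only to stay of similar size. The exceptions among the results that answer a comparison follow, with every change of sign in the edgeR and DESeq2 fits and with albumin in place of the markers. Changes of sign against the hepatocyte markers with a mouse left out were not recorded. With library size alone 9635 genes were called in miR-Ctrl BDL and 10194 in anti-miR-873-5p BDL, where 6 receptors passed, all higher; in miR-Ctrl BDL 5 receptors were then called higher and 1 lower. Its log2 fold changes turned positive for Nr0b2 (0.13), Hnf4a (0.56), Rxra (0.20) and Nr1h3 (0.47) with the control oligonucleotide, for Nr1h4 (0.36), Nr0b2 (0.49), Nr1i3 (0.56), Nr5a2 (0.75), Hnf4a (0.69), Rxra (0.56) and Nr1h3 (0.49) with the inhibitor, and for Nr1h3 (0.043) between the BDL groups. With the 20 most counted genes left out of the library size, the median gene stood at 0.35 and 0.34, 3 receptors were called in miR-Ctrl BDL, and 4745 genes and 1 receptor (Esr1, higher) in anti-miR-873-5p BDL. The sign then turned for Hnf4a (0.11) and Nr1h3 (0.019) in the first, Nr1i3 (0.11), Nr5a2 (0.26), Hnf4a (0.21), Rxra (0.084) and Nr1h3 (0.0053) in the second, and Nr1h3 (0.0060) between the BDL groups.

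Against no BDL, anti-miR-873-5p BDL gave 2 receptors by DESeq2 and 2 with all 3 groups in 1 fit, in both Ppara and Nr1h3. Between the BDL groups DESeq2 called 31 genes, with Hnf4a at -0.0047; Nr0b2 and Nr1i2 turned to 0.40 and 0.028 with all 3 groups in 1 fit and to 0.41 and 0.034 with all 4 mice of each group.

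Mice of the same number did not deviate together against no BDL (correlations of -0.19 to 0.06 over 4 pairs in each comparison, no mouse closest to its own number), and only 2 pairs could be made between the BDL groups (0.22 and 0.54); they share a number only. With a replicate block, 4063, 2195 and 0 genes and 4, 1 and 0 receptors were called in the 3 comparisons. Nr1i2 (-0.016) and Nr5a2 (-0.0054) turned in miR-Ctrl BDL, and Nr1i2 (-0.099) with the inhibitor, as did Hnf4a (-0.031) and Nr1h3 (0.082) between the BDL groups.

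With albumin in place of the 12 markers no receptor passed either. The differences that turned were those of Nr0b2 (0.24) and Rxra (0.26) in miR-Ctrl BDL, Nr1h4 (0.40) and Nr0b2 (0.43) with the inhibitor, and Nr0b2 (0.060), Nr1i2 (0.10), Nr5a2 (0.20), Hnf4a (0.34), Nr1h3 (0.33) and Esr1 (0.34) between the BDL groups.

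Leaving out each mouse from the edgeR fits, which this paragraph covers, 3775 to 5710 genes and 4 to 5 receptors were called in miR-Ctrl BDL. With the inhibitor, 1261 (without mouse 3 of that group) to 4317 (without its mouse 2) genes and 0 to 1 receptors were called, beside 2823 with all mice; without its mouse 4, or without no BDL mouse 1, 2, 3 or 4, the count was 1392 to 1824. Between the BDL groups 0 to 1 gene was called. Signs turned only for differences that had not passed: Nr1i2 (-0.11 to 0.12) and Nr5a2 (-0.041 to 0.18) with the control oligonucleotide; Nr1i2 (-0.29 to 0.26), Nr1i3 (-0.80 to 0.028) and Nr5a2 (-0.19 to 0.046) with the inhibitor; and Nr0b2 (-0.58 to 0.0068), Hnf4a (-0.024 to 0.042), Nr1h3 (-0.069 to 0.036) and Esr1 (-0.38 to 0.26) between the BDL groups. The cause of these shifts was not tested.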
